A study of Mus musculus with 48 samples.

Results

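The genes described here are secreted signals of inflammation: the chemokines CCL2, CCL7, CXCL1, CXCL5 and CXCL12, the cytokine IL6, and the innate immune proteins LCN2 and PTX3. The members are all probes that carry one of these 8 gene symbols in the array table, whatever their signal. The rule holds no threshold on a measured value, although the genes were picked with earlier results of these data known. It found 10 probes of 7 genes among 24613 probes under 18991 symbols: 3 for CXCL12, 2 for PTX3 and 1 each for CCL2, CCL7, CXCL1, IL6 and LCN2. CXCL5 was not analysed here.

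Chemokines are small secreted proteins that draw leukocytes along a gradient. CC chemokines such as CCL2 and CCL7 mainly attract monocytes, CXCL1 attracts neutrophils, and CXCL12 retains and guides cells that carry the receptor CXCR4. Fibroblasts and preadipocytes make many of these proteins under the control of NF-κB and C/EBP factors. In fat tissue CCL2 is known for its link to macrophage entry in obesity, and LCN2, PTX3 and IL6 are secreted products of fat and stromal cells in inflammation. PPARγ, the nuclear receptor that drives fat cell formation, and glucocorticoids such as dexamethasone are both known to hold back inflammatory genes.

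The arrays read total RNA of 3T3-L1 cells, an established mouse fibroblast line that turns into fat cells when given hormones. Cells received a pool of small interfering RNAs against PPARγ (SMARTpool, called PPARγ KD) or a pool of siRNAs without a target (siCONTROL, called control siRNA), each at 50 nM and delivered with a lipid reagent. Confluent cells of both groups then had 0.25 µM dexamethasone and 0.5 mM isobutylmethylxanthine (IBMX) from day −2 for 48 hours, followed by 5 µg/ml insulin and 1 µM rosiglitazone, a PPARγ ligand, from day 0 for 48 hours. RNA was taken on day −2 and on days 0, 1, 2, 3, 4, 5 and 6 in 3 independent biological replicates, which gave 48 arrays in 16 groups of 3. All groups share the cell line and the transfection, no group shows untransfected cells, and the labels do not say whether day −2 cells were taken before the hormones were added. Levels are log2 of the signal after background correction and scaling, and are compared within a probe only. Differences are PPARγ KD minus control siRNA on the log2 scale, with the standard error (SE) and the Bonferroni adjusted p of limma's fit over all 24613 probes. A difference was called at an adjusted p of at most 0.05, and only called differences are described as higher, lower, rising or falling without further remark. A probe was above background on an array where its detection p was under 0.01. Groups overlap where the ranges of their arrays do, whatever the replicate number, so a shift of 1 replicate adds to the overlap.

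The targeted gene, PPARG, was lower after PPARγ siRNA in all 24 of 24 same-day, same-number array pairs on probe 6130632 (difference −2.34, SE 0.04, limma adjusted p = 9.480e-34), with daily differences from −2.63 to −1.93. Probe 1990168, above background on 29 arrays, stood at −2.51 (SE 0.06) and was lower in 24 of 24 pairs. Probe 2680603, above background on 8 arrays, stood at −1.21 (SE 0.07) and was lower in 21 of 24 pairs, with daily differences from −2.86 to 0.0004. The signals as deposited ran from 15.4 to 67066.3, and each array detected 33.4% to 40.4% of its probes above background. Replicate 3 stood apart from the other two, at 33.4% to 35.4% against 36.8% to 40.4%. On arrays with few detected probes the precision is limited by the signal over background and by the 3 arrays per group. Of 11 probes of adipocyte markers 10 were lower in the PPARγ KD over days −2 to 6, when 6.74% of all probes were, among them CIDEC, a lipid droplet protein, at −4.15 (SE 0.08) and ADIPOQ, which encodes adiponectin, at −3.74 (SE 0.08), and PLIN, the droplet coat protein perilipin, at −3.10 (SE 0.06). Of 14 probes of fibroblast markers 8 were higher, when 6.37% of all probes were, with 2 probes of FN1, fibronectin, at 0.63 (SE 0.05) and 0.43 (SE 0.07) and COL3A1, a collagen chain, at 0.48 (SE 0.04). In bulk RNA, fewer cells of a type and less RNA per cell cannot be told apart, and the part of these shifts in the results below was not tested.

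RefSeq sequences of the 250 bases before the transcription start (build GRCm38.p6) were matched for 5 of the 8 genes, and Ccl2, Ccl7 and Cxcl5 are named only. The stretches of 4 of them are shown, 5′ to 3′ on the strand of the gene, because 3 belong to genes that were higher in the PPARγ KD on at least 1 of days 0 to 2 and the last, Cxcl12, to the gene that was lower there on the earliest days. Capitals mark matches, on either strand, to the NF-κB consensus in Cxcl1 (chr5:90890995-90891244, + strand) and to the C/EBP core TTNNGCAA in Lcn2 (chr2:32387740-32387989, − strand) and Ptx3 (chr3:66219637-66219886, + strand), while Cxcl12 (chr6:117168285-117168534, + strand) held none of the motifs searched.
Cxcl1: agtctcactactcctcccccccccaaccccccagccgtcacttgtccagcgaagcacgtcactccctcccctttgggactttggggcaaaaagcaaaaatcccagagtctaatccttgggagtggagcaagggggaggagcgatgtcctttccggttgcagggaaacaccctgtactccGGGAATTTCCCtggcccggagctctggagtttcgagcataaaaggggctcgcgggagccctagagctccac
Lcn2: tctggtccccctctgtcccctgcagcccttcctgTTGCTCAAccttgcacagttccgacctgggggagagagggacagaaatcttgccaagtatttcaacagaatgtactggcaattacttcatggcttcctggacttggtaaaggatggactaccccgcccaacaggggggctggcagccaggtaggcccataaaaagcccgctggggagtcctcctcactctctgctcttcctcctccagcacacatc
Ptx3: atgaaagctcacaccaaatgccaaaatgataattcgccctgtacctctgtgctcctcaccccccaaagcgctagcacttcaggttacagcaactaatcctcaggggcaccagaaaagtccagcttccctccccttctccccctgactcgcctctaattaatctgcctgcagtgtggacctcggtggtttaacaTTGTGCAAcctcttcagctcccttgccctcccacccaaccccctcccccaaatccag
Cxcl12: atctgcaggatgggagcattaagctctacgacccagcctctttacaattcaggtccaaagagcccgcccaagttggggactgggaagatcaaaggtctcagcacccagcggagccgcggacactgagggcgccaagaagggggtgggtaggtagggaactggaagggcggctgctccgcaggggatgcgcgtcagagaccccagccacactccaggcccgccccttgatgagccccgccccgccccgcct

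In Cxcl1 the matches to the NF-κB consensus began 71 and 70 bases before the start and overlapped each other. Il6 (chr5:30012864-30013113, + strand) held an NF-κB match that began 44 bases before the start and a C/EBP core at 128 bases, and the C/EBP cores of Lcn2 and Ptx3 began at 216 and 57 bases. The NF-κB consensus was in 3.897% and the C/EBP core in 9.571% of 32817 RefSeq promoter stretches of the same length. The PPARγ DR1 consensus and the glucocorticoid response element consensus, which were in 0.09142% and 0.1676% of all stretches, matched in none of the 5. These matches are letters in a window and not measured sites. In the RefSeq gene order Ccl2 and Ccl7 are neighbours on chromosome 11 with 0 genes between them, and Cxcl1 and Cxcl5 lie on chromosome 5 with 4 genes between them.

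Detection set what could be measured. CCL7, CXCL1, both PTX3 probes and CXCL12 probes 4150750 and 4570068 were above background on all 48 arrays. LCN2 passed that limit on 23 of 24 arrays of control siRNA and 21 of 24 of the PPARγ KD, and CCL2 on 16 and 22. IL6 was above background on 7 arrays and CXCL12 probe 580546 on 3, so neither gave a level on most days.

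**Figure D1:**
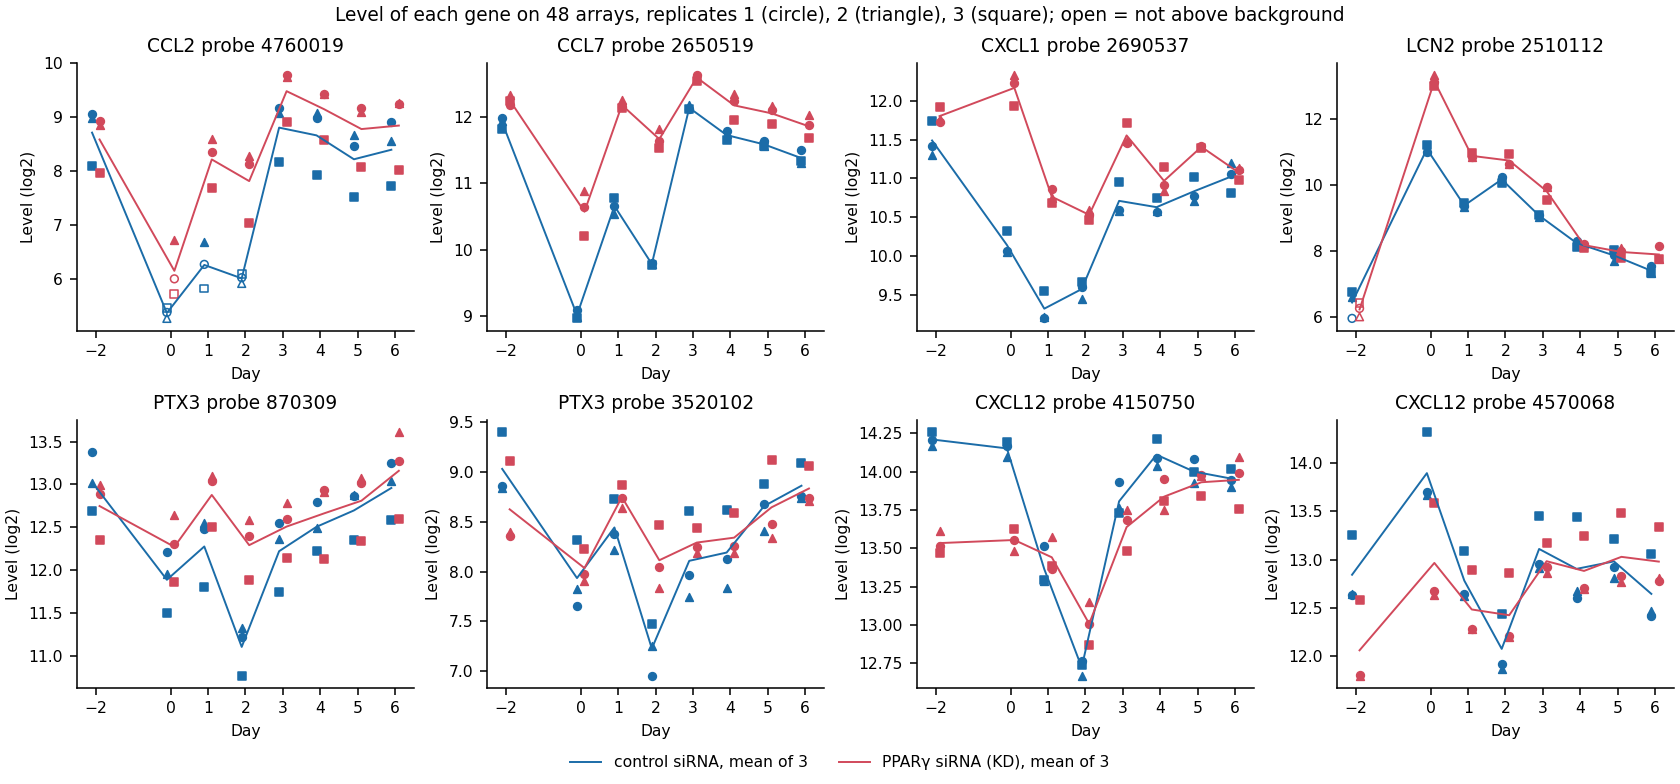
Log2 level (vertical axis) against day (horizontal axis) for the 8 brighter probes, with 1 point per array, circles, triangles and squares for replicates 1, 2 and 3, lines through the means of 3, and open points where a probe was not above background. CCL2, CCL7, CXCL1 and LCN2 show the PPARγ KD above control siRNA around days 0 to 2 with the lines drawing together later, while both CXCL12 probes start lower in the PPARγ KD.

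Over days −2 to 6 together, 7 of the 10 probes were called, 5 with a higher and 2 with a lower level after PPARγ siRNA. Of all probes 13.1% were called, 6.37% higher and 6.74% lower. The median difference of the 10 probes was 0.24, against −0.03 for all probes tested. CCL7 stood at 0.89 (SE 0.03, limma adjusted p = 8.306e-21), CCL2 at 0.82 (SE 0.07, adjusted p = 1.525e-09), CXCL1 at 0.82 (SE 0.04, adjusted p = 6.986e-17), LCN2 at 0.65 (SE 0.05, adjusted p = 6.745e-11) and PTX3 probe 870309 at 0.33 (SE 0.04, adjusted p = 2.607e-06). The fit takes the days of a replicate as independent, so the SEs of means over days may be too small. In replicates 1 to 3 the CCL7 mean difference was 0.86, 1.05 and 0.77. Of 24 pairs of arrays matched by day and number, the PPARγ KD had the higher level in 24 for CCL7, 23 for CXCL1, 21 for CCL2, 19 for PTX3 probe 870309 and 18 for LCN2. CXCL12 was lower by a small amount, at −0.18 (SE 0.03) on both brighter probes, with adjusted p-values of 0.0344 and 0.0326 and a higher level in the PPARγ KD in 8 and 9 of 24 pairs. These CXCL12 calls were lost under 7 of 10 alternatives each, among them quantile normalization. Without the replicate number in the model, CCL2 (adjusted p = 0.0728) and PTX3 probe 870309 were not called either. The second PTX3 probe (0.15, SE 0.04), IL6 (−0.02, SE 0.09) and CXCL12 probe 580546 (−0.16, SE 0.08) were not called.

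CCL2 and CCL7, the neighbouring genes for monocyte chemoattractants, shared a course under control siRNA in which the levels were high on day −2, low on days 0 to 2 and high again from day 3. CCL7 levels under control siRNA on day 0 were 9.09, 8.99 and 8.97 in replicates 1 to 3, and 10.64, 10.88 and 10.20 in the PPARγ KD. On day 1 they were 10.66, 10.54 and 10.78 under control siRNA and 12.15, 12.25 and 12.13 in the PPARγ KD. On day 2 they were 9.79, 9.79 and 9.77 against 11.64, 11.82 and 11.53. The 2 groups did not overlap on any of these days, and the lowest PPARγ KD array of days 1 and 2 was above every control array of the same day. The differences were 1.56 on day 0 (SE 0.10), 1.52 on day 1 and 1.88 on day 2, or 2.94, 2.87 and 3.68 times the control level.

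From day 3 to day 6 the CCL7 difference lay between 0.45 and 0.48, and on day −2 it was 0.33 (SE 0.10). None of these 5 days was called for CCL7, although its groups did not overlap on any of the 8 days. Averaged over days 4 to 6, the CCL7 difference was 0.46 and was called (limma adjusted p = 2.015e-05), with a 95% interval from 0.35 to 0.58. In replicates 1 to 3 this mean was 0.43, 0.64 and 0.32 (SD 0.16). The fit takes the days of a replicate as independent, so the interval may be too narrow. Under control siRNA the highest CCL7 mean was on day 3 (12.14 ± 0.04, SD, n = 3), followed by days −2, 4, 5, 6, 1, 2 and 0 (9.02 ± 0.07), and no neighbouring days in that order overlapped. In the PPARγ KD the order was 3, −2, 1, 4, 5, 6, 2 and 0, and of the 7 neighbouring pairs 2 did not overlap: day 3 from day −2, and day 2 from day 0.

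CCL2 was not detected on every array. Its day 1 levels were 6.27, 6.69 and 5.82 under control siRNA, above background on 1 of 3 arrays, and 8.36, 8.59 and 7.69 in the PPARγ KD, above background on 3 of 3. On day 2 they were 6.02, 5.92 and 6.09 under control siRNA, above background on 0 of 3 arrays, and 8.13, 8.28 and 7.04 in the PPARγ KD. The groups did not overlap on either day. The day 1 difference was 1.96 (SE 0.20, limma adjusted p = 2.054e-07), and without background correction it was 1.22. On day 2 the difference was 1.80 (SE 0.20, limma adjusted p = 1.752e-06). As a bound against the lowest signal above background on each control array, this means at least 2.29-fold higher in the PPARγ KD with the main background correction. This call was lost without replicate 1 (1.65) and without replicate 2 (1.52), and without background correction the value was 1.06.

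On day 0 CCL2 was detected on 0 of 3 control arrays and 1 of 3 PPARγ KD arrays, with means of 5.37 and 6.15, and was not called. From day 3 on it was above background on every array, its daily differences ran from 0.45 to 0.68 without a call, and the groups overlapped on each of these days. Replicate 3 was 0.81 below the mean of the other two on average, and below both in 14 of the 16 groups. Both siRNAs had their highest CCL2 mean on day 3, at 8.81 ± 0.56 (SD, n = 3) with control siRNA and 9.48 ± 0.49 with PPARγ siRNA. The order of CCL2 levels under control siRNA was 3, −2, 4, 6, 5, 1, 2 and 0, and only the neighbours 5 and 1 and the neighbours 2 and 0 were apart.

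CXCL1, a neutrophil chemoattractant, had its widest difference on day 0 and a smaller one on each of the next 2 days. On day 0 the levels were 10.06, 10.04 and 10.32 under control siRNA and 12.24, 12.33 and 11.94 in the PPARγ KD. On day 1 they were 9.19, 9.21 and 9.55 against 10.86, 10.75 and 10.68. The groups did not overlap on days 0 to 5. The differences were 2.03 on day 0 (SE 0.12, limma adjusted p = 6.156e-15), 1.45 on day 1, 0.96 on day 2 and 0.85 on day 3, all called, and 0.34, 0.58 and 0.05 on days 4, 5 and 6. Without replicate 1 the day 2 and day 3 calls were lost (0.97 and 0.83), and without replicate 2 as well (0.87 and 0.82).

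For CXCL1 the order in the PPARγ KD was day 0, −2, 3, 5, 6, 4, 1 and 2, with 5 of 7 neighbouring pairs that did not overlap. Under control siRNA it was −2, 6, 5, 3, 4, 0, 2 and 1, with 3 of 7 that did not. Day 0 was the highest mean in the PPARγ KD (12.17 ± 0.20, SD, n = 3) and the sixth in the order under control siRNA (10.14 ± 0.15).

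LCN2, lipocalin 2, a secreted protein that binds bacterial iron carriers, was at or near background on day −2 and reached its highest level on day 0 under both siRNAs. On day −2 its levels were 5.96, 6.60 and 6.75 under control siRNA, above background on 2 of 3 arrays, and 6.26, 6.01 and 6.42 in the PPARγ KD, above background on 0 of 3. On day 0 they were 11.01, 11.04 and 11.22 against 13.11, 13.32 and 12.99, and on day 1 they were 9.35, 9.34 and 9.45 against 10.84, 10.84 and 10.96. The groups overlapped on day −2 and were apart on days 0 and 1. The differences were 2.06 on day 0 (SE 0.14, limma adjusted p = 2.030e-12), a ratio of 4.16, and 1.50 on day 1 (SE 0.14).

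After day 1 the LCN2 differences were 0.57, 0.74, −0.07, 0.10 and 0.49 on days 2 to 6, none of them called, with groups that did not overlap on days 2, 3 and 6. The mean was lower on each day after day 3 than on the day before under both siRNAs, going from 9.07 ± 0.03 to 7.40 ± 0.12 between days 3 and 6 under control siRNA (SD, n = 3). Under control siRNA day 0 was highest, followed by days 2, 1, 3, 4, 5, 6 and −2, with no overlap between neighbours. In the PPARγ KD the order was day 0, 1, 2, 3, 4, 5, 6 and −2, and 4 of 7 neighbouring pairs did not overlap.

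PTX3, pentraxin 3, an innate immune recognition protein, was higher in the PPARγ KD on day 2 on both of its probes. Probe 870309 read 11.22, 11.32 and 10.77 under control siRNA on that day and 12.41, 12.59 and 11.88 in the PPARγ KD. Probe 3520102 read 6.96, 7.25 and 7.47 against 8.04, 7.83 and 8.47. On both probes all PPARγ KD arrays were above all control arrays. The differences were 1.19 (SE 0.11, limma adjusted p = 4.177e-09) and 0.89 (SE 0.11, adjusted p = 2.103e-05), and the second was not called without replicate 1 (0.79). On day 1 probe 870309 was called at 0.60 (SE 0.11, limma adjusted p = 0.0402), a call lost without any of the replicates 1, 2 or 3 (0.62, 0.63 and 0.55). Its groups overlapped, but the PPARγ KD was higher in each replicate, with 12.48, 12.55 and 11.80 under control siRNA against 13.04, 13.10 and 12.50. Probe 3520102 was not called on day 1 at 0.31.

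On the other days the PTX3 differences ran from −0.28 to 0.38 on probe 870309 and from −0.41 to 0.18 on probe 3520102, with overlapping groups. The probes differed in how replicate 3 lay: on 870309 it was below both other replicates in 16 of 16 groups, by 0.61 on average, and on 3520102 above both in 16 of 16, by 0.46. Over the 16 group means the probes rose and fell together (Pearson r = 0.96, a description over means that share arrays). Both gave day −2 as the highest and day 2 as the lowest mean under control siRNA, at 13.03 ± 0.34 and 11.11 ± 0.29 (SD, n = 3) on probe 870309, and only day 0 and day 2 were neighbours that did not overlap.

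CXCL12, a chemokine that stromal cells make steadily, was lower in the PPARγ KD on days −2 and 0. On day −2 probe 4150750 read 14.21, 14.17 and 14.26 under control siRNA and 13.52, 13.61 and 13.47 in the PPARγ KD, and probe 4570068 read 12.64, 12.64 and 13.25 against 11.80, 11.80 and 12.58. On day 0 the readings were 14.17, 14.09 and 14.19 against 13.55, 13.48 and 13.62 on the first probe, and 13.70, 13.67 and 14.32 against 12.67, 12.64 and 13.59 on the second. On both days each probe's groups were apart. The differences on day −2 were −0.68 (SE 0.09, limma adjusted p = 8.895e-05) and −0.78 (SE 0.09, adjusted p = 2.282e-06), and on day 0 they were −0.60 (SE 0.09, adjusted p = 1.353e-03) and −0.93 (SE 0.09, adjusted p = 2.209e-08).

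The size of these CXCL12 differences barely moved when a replicate was left out, while several calls were lost. On probe 4150750 the day −2 call was lost without replicate 1 (−0.67) or 3 (−0.62) and the day 0 call without replicate 1 (−0.59), 2 (−0.59) or 3 (−0.61). On probe 4570068 the day −2 call was lost without replicate 1 (−0.76) or 2 (−0.75), and the day 0 call was kept each time. From day 1 to day 6 the differences ran from −0.27 to 0.28 on probe 4150750 and from −0.30 to 0.35 on probe 4570068, with no call. On day 2 both were positive (0.28 and 0.35), and the groups of probe 4150750 did not overlap. Its groups did not overlap on day 4 either, where the differences were −0.27 and −0.02. The third probe, 580546, was above background on 3 control arrays and on 0 of 24 PPARγ KD arrays, with no called difference on any day. Replicate 3 was 0.60 above the mean of the other two on probe 4570068 and above both in 16 of 16 groups, against −0.05 on probe 4150750. Under control siRNA both brighter probes had their lowest CXCL12 mean on day 2, at 12.72 ± 0.05 and 12.08 ± 0.32 (SD, n = 3). In the PPARγ KD the order on probe 4150750 was day 6, 5, 4, 3, 0, −2, 1 and 2, and on probe 4570068 none of the 7 neighbouring days were apart.

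IL6, an inflammatory cytokine of the acute phase response, was detected above background on 2 of 3 control arrays of days −2 and 6, on 2 of 3 PPARγ KD arrays on day 0 and on 1 of 3 on day 6. All 7 detected readings came from replicates 1 and 2. On day 0 the 2 detected PPARγ KD levels were 7.18 and 7.60, and the day 0 means were 5.93 ± 0.39 with control siRNA and 6.80 ± 1.05 with PPARγ siRNA (SD, n = 3). The difference of 0.86 had a 95% interval from 0.33 to 1.40 and was not called, and the groups overlapped. On the other 7 days the difference ran from −0.45 to 0.23.

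**Figure D2:**
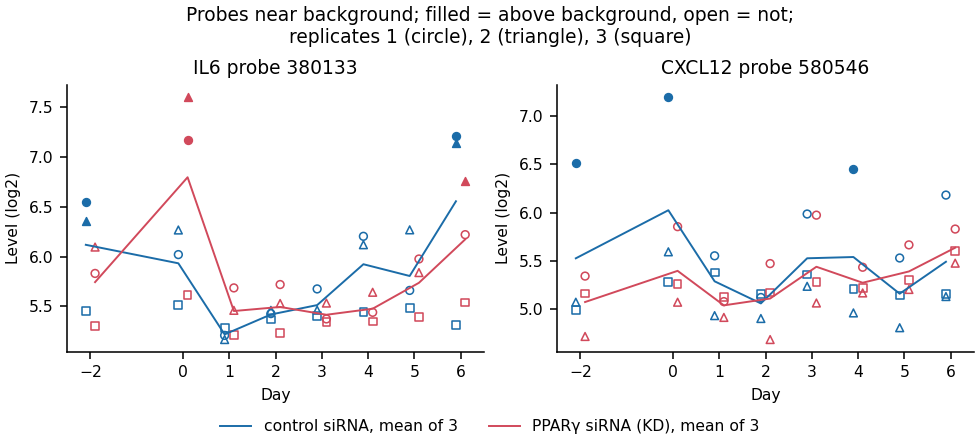
Log2 level (vertical axis) against day (horizontal axis) for IL6 and the dim CXCL12 probe, with 1 point per array, circles, triangles and squares for replicates 1, 2 and 3, and lines through the means of 3. Filled points, 7 for IL6 and 3 for CXCL12 probe 580546, were above background and open points were not.

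**Figure D3:**
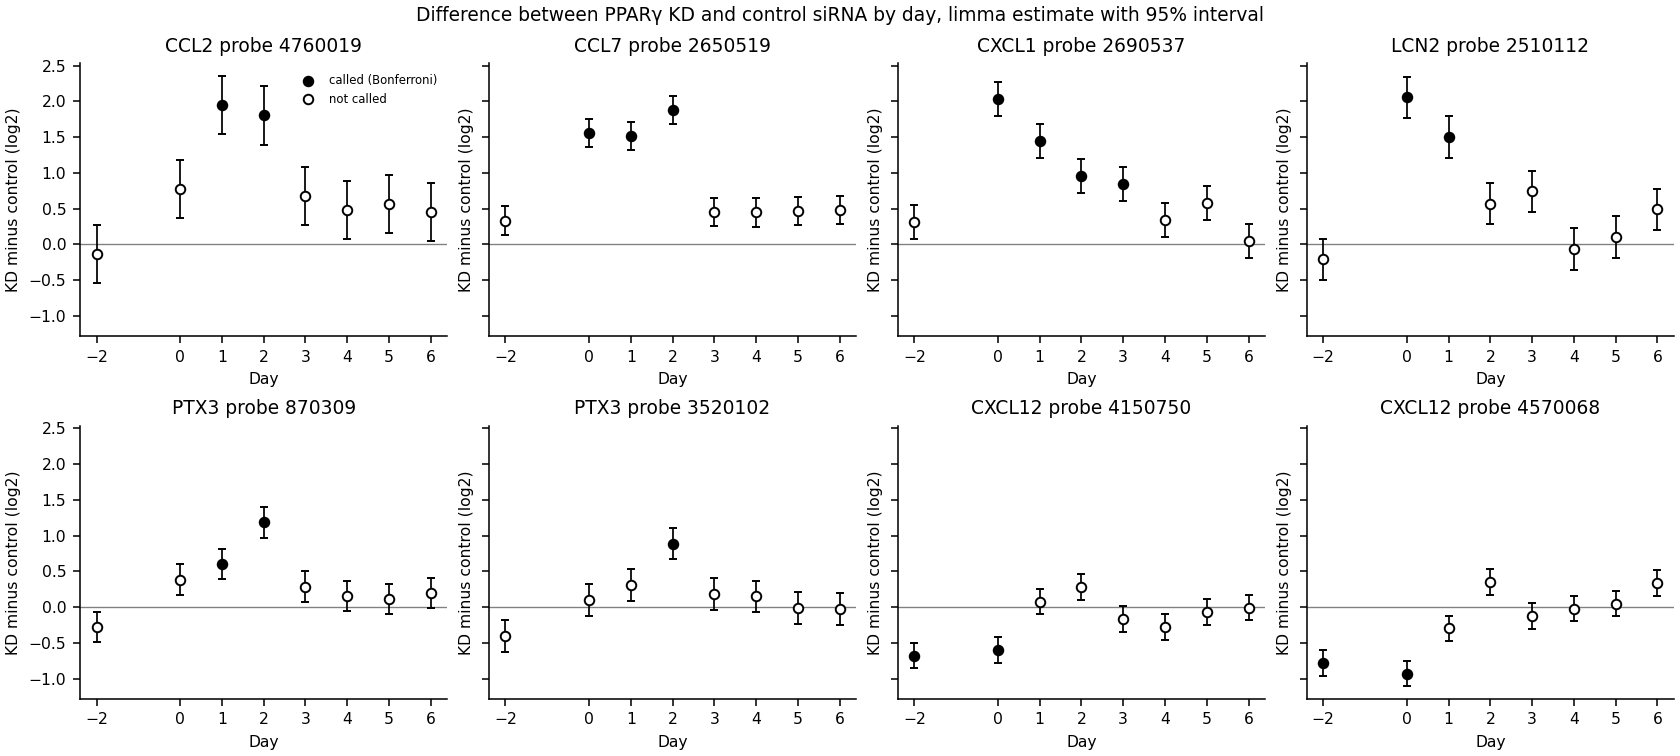
PPARγ KD minus control siRNA on the log2 scale (vertical axis) against day (horizontal axis) for the 8 brighter probes, with the limma estimate and its 95% interval. Filled points, called after Bonferroni adjustment, lie on days 0 to 3 for the genes that were higher and on days −2 and 0 for CXCL12, and none lies on days 4 to 6.

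Counted by day, called members were lower at the start and mostly higher on days 0 to 3, and no single later day had a call. On day −2, 2 of 10 probes were called, both of CXCL12 and lower, when 0.861% of all probes were called. On day 0 there were 5, with CCL7, CXCL1 and LCN2 higher and the CXCL12 pair lower (3.03% of all probes). Day 1 had 5 higher (2.91% of all probes), day 2 had 5 higher (8.92%) and day 3 had CXCL1 alone (2.76%). On days 4, 5 and 6 limma called 0 of 10, when 2.4%, 3.24% and 3.88% of all probes were called. Shares that low leave few calls to be met among 10 probes, and the CCL7 mean difference of days 4 to 6 was itself called. At an unadjusted p of at most 0.05 the members on those 3 days were 3, 3 and 4 higher and 1, 0 and 0 lower, and with Benjamini-Hochberg adjustment 1, 2 and 3 higher and 1, 0 and 0 lower. The share of all probes at these levels was not counted, so these counts cannot be set against the whole array. In place of rank-invariant scaling, quantile normalization moved the median difference of all probes by 0.12 on day 2 and 0.11 on day 3, which is small beside the called differences of those days.

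Whether the effect of PPARγ siRNA differed between the days around rosiglitazone and the last days was tested directly, as the mean difference of days 4 to 6 minus that of days 0 to 2. This contrast was called for 6 of 10 member probes and 3.63% of all probes. CCL7 went from 1.65 on days 0 to 2 to 0.46 on days 4 to 6, CXCL1 from 1.48 to 0.32, LCN2 from 1.38 to 0.18, CCL2 from 1.51 to 0.50 and PTX3 probe 870309 from 0.72 to 0.16. All 5 effects were smaller late. CXCL12 probe 4570068 went the other way, from −0.29 to 0.12, whereas probe 4150750 had −0.08 early and −0.12 late and was not called, so the CXCL12 probes did not share this result. The second PTX3 probe went from 0.43 to 0.04 and IL6 from 0.39 to −0.30, neither called.

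The early to late change was not equally firm for each gene. For CCL7, CXCL1 and LCN2 it was called in every alternative run. For CCL2 the call was lost in 7 of 11 alternatives: without replicate 1 (−0.97) or 2 (−0.82), without background correction (−0.48 in place of −1.02), with an offset of 50 (−0.70), without scaling, with no replicate block and in the separate fit. For PTX3 probe 870309 it was lost without replicate 1 (−0.60) or 3 (−0.47), and for CXCL12 probe 4570068 without replicate 1 (0.37) or 2 (0.39) and in the separate fit. Both were also lost without scaling and with no replicate block.

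**Figure D4:**
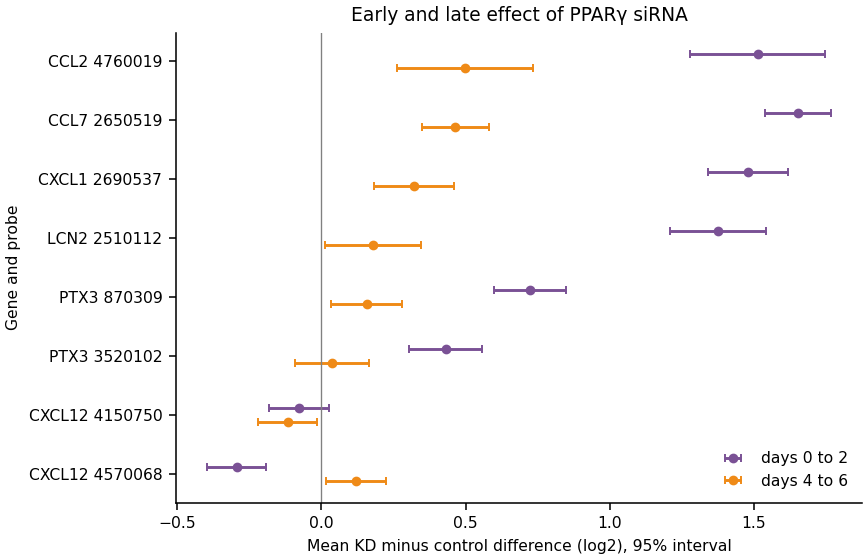
Mean PPARγ KD minus control difference on the log2 scale (horizontal axis) on days 0 to 2 and on days 4 to 6 for the 8 brighter probes (vertical axis), with 95% intervals from limma. CCL7 sits at 1.65 early and 0.46 late, and the CXCL12 probes lie between −0.29 and 0.12. The intervals take the days of a replicate as independent and may be too narrow.

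Under control siRNA, the 48 hours of dexamethasone and IBMX were accompanied by a fall of the 2 CC chemokines, CXCL1 and PTX3 and by a rise of LCN2. These agents and time changed together and cannot be told apart. From day −2 to day 0, 7 of 10 probes were called, against 9.06% of all probes. CCL7 fell by 2.90 (SE 0.10, limma adjusted p = 6.100e-23), CXCL1 by 1.35 (SE 0.12), and PTX3 changed by −1.14 and −1.10 on its probes. CCL2, above background on 0 of 3 control arrays on day 0, was at least 4.68-fold lower there than on day −2 (limma adjusted p = 1.856e-14). This bound holds with the main background correction, and without it the CCL2 change was −2.09. LCN2 rose by 4.65 (SE 0.14, adjusted p = 1.494e-24), a ratio of 25.1. CXCL12 rose by 1.05 (SE 0.09) on probe 4570068 but stood at −0.06 on probe 4150750, so its probes disagreed over this step. With no replicate block the PTX3 and CXCL12 calls of this step were lost.

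In the PPARγ KD the same step was called for 4 of 10 probes, against 7.39% of all probes. CCL7 fell by 1.68 (SE 0.10) and CCL2 fell by 2.44 (SE 0.20). LCN2, not above background on day −2, was at least 101-fold higher on day 0 (limma adjusted p = 8.355e-31), a bound for the main processing only. Over the alternatives its log2 change ran from 5.77 to 7.08. CXCL12 probe 4570068 rose by 0.91, a call lost without scaling (0.68) and with no replicate block. CCL2 was above background on 1 of 3 PPARγ KD arrays on day 0, and without background correction its change was −1.58. CXCL1, which fell under control siRNA, stood at 0.37 (SE 0.12) and was not called, and neither was PTX3. The difference between the siRNAs in a step was not tested. With quantile normalization the median of all probes moved by −0.13, 0.14 and −0.15 over the 3 steps of the PPARγ KD, and each change given here for them is relative to the rank-invariant scaling.

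From day 0 to day 2, with insulin and rosiglitazone, control cells had 6 of 10 member probes called (12.4% of all probes). CXCL12 fell by 1.43 (SE 0.09) and 1.82 (SE 0.09) on its brighter probes, LCN2 fell by 0.92 (SE 0.14), PTX3 changed by −0.78 and −0.71, and CCL7 rose by 0.77 (SE 0.10). The LCN2 call was lost whichever replicate was left out, with −0.95 without replicate 2 and −0.81 without replicate 3, and that of CCL7 without replicate 1 (0.80). The calls of PTX3 were lost without replicate 1 (−0.68) or 3 (−0.81) on probe 870309 and without replicate 1 (−0.71), 2 (−0.77) or 3 (−0.64) on probe 3520102. Without scaling between arrays the calls of CCL7, LCN2 and PTX3 were lost as well. With PPARγ siRNA 6 of 10 were called (5.06% of all probes): CCL2 rose by 1.66 (SE 0.20) and CCL7 by 1.09 (SE 0.10), while LCN2 fell by 2.40 (SE 0.14), CXCL1 fell by 1.64 (SE 0.12) and CXCL12 changed by −0.55 and −0.54. The CCL2 call was lost without replicate 1 (1.43), and without background correction the CCL2 value was 1.00. Both CXCL12 calls were lost whichever replicate was left out, with changes from −0.65 to −0.44 on probe 4150750 and from −0.59 to −0.45 on probe 4570068, and without scaling between arrays, where they were −0.30 and −0.29.

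From day 2 to day 6, 8 of 10 member probes were called under control siRNA (12.2% of all probes), 7 of them higher on day 6. PTX3 rose by 1.85 (SE 0.11) and 1.63 (SE 0.11), CCL7 by 1.59 (SE 0.10), CXCL1 by 1.46 (SE 0.12) and CXCL12 by 1.23 and 0.57. CCL2 was at least 3.43-fold higher on day 6 than on day 2 (limma adjusted p = 7.483e-10). This bound holds with the main background correction, and without it the CCL2 change was 1.48. LCN2 was the member that fell, by 2.76 (SE 0.14). The call of CXCL12 probe 4570068 was lost without replicate 1 (0.61) or 2 (0.56) and without scaling. After PPARγ siRNA 5 of 10 were called (4.85% of all probes), with LCN2 falling by 2.85 (SE 0.14), CXCL12 rising by 0.94 and 0.56 and PTX3 rising by 0.87 and 0.72. Without scaling between arrays LCN2 alone stayed called, with 0.71 and 0.33 for CXCL12 and 0.64 and 0.49 for PTX3. The calls of CXCL12 probe 4570068 and PTX3 probe 3520102 were lost without replicate 1 (0.55 and 0.73) or 2 (0.53 and 0.64), and that of PTX3 probe 870309 without replicate 3 (0.94). CCL2, CCL7 and CXCL1 were not called over this step in the PPARγ KD.

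Other chemokines on the array were listed too, and of all 24613 probes 10567 were above background on at least 3 arrays. Of 15 probes of other CC chemokines 6 were above background on at least 3 arrays, and 2 were called higher over the whole course, when 6.37% of all probes were. These were CCL5, a chemokine for T cells and monocytes, at 0.82 (SE 0.08) and CCL9 at 0.66 (SE 0.04). CCL5 and CCL9 had early differences of 1.69 and 1.37 and late ones of 0.21 and 0.07, and from day −2 to day 0 under control siRNA they changed by −2.62 and −3.24. No other CC chemokine was called lower by limma, at an unadjusted p of at most 0.05 either, while 5 probes were higher at that level and 4 with Benjamini-Hochberg adjustment. How many of all probes passed these lesser thresholds was not counted, so the counts have no measure beside them. The median difference of the list was 0.02 against −0.03 for all probes.

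Of 14 probes of other CXC, CX3C and C chemokines 4 were above background on at least 3 arrays, when 10567 of all 24613 probes were. Among the 14, 2 were higher and 1 lower, when 13.1% of all probes were called in either direction. CXCL15 was higher by 1.18 (SE 0.05) in 24 of 24 pairs, with 1.20 early and 1.28 late, and PPBP, a platelet chemokine precursor, by 0.54 (SE 0.05). CXCL9 was called at −0.30 but was above background on 0 of 48 arrays. Of 18 probes of chemokine, IL6 and LCN2 receptors 2 were above background on at least 3 arrays, and 1 was called, IL6ST, the shared signal chain of the IL6 receptor family, at 0.79 (SE 0.07).

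Among 44 probes of other cytokines and acute phase proteins 8 were called higher and 6 lower, against 6.37% and 6.74% of all probes. The widest differences belonged to liver and fat acute phase proteins and were negative: HP, haptoglobin, stood at −2.47 (SE 0.05) and −2.44 (SE 0.07) on its probes, and ORM1, orosomucoid, at −2.41 (SE 0.06). HP was at −1.34 early and −3.60 late on probe 6350068, and ORM1 at −1.11 and −4.03. Over days −2 to 6 HP and ORM1 were thus lower in the PPARγ KD while LCN2 and PTX3 probe 870309 were higher. The times differed, as the LCN2 and PTX3 differences were smaller late. SAA3, another acute phase gene of the list, was higher at 0.45 (SE 0.06), and so was SERPINA3G at 0.33 (SE 0.04). Lower were SERPINA3N at −2.31 (SE 0.07), ORM2 at −2.08 (SE 0.10) and C3 at −0.60 (SE 0.04). SAA1 and SAA2 were above background on no array. Of 43 probes of the NF-κB pathway 8 were higher and 6 lower, against the same shares of all probes. NFKBIE, an inhibitor of NF-κB, was at 0.53 (SE 0.06), NFKB2, a subunit, at 0.48 (SE 0.04) and TNFAIP3, a feedback inhibitor, at −0.44 (SE 0.04).

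Markers of leukocytes, which make several of these proteins in tissue, were nearly all undetected. Of 28 probes 2 were above background on at least 3 arrays, when 10567 of all 24613 probes were. The 2 were LYZS, lysozyme, and CD14, a coreceptor for bacterial lipopolysaccharide. The defining markers PTPRC, CD68, EMR1, ITGAM and CSF1R were above background on 0 of 48 arrays. The summed level of the list ran from 832 to 1604 on control arrays and from 857 to 1599 on those of the PPARγ KD. LYZS was at 0.32 (SE 0.05, limma adjusted p = 0.0134), and ELA2, called at −0.28, was above background on 0 of 48 arrays.

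Across the 16 group means of the 8 member probes above background on at least 8 arrays, which leaves out IL6 and CXCL12 probe 580546, CCL2 and CCL7 had the highest correlation between different member genes (Pearson r = 0.94), and LCN2 and CCL2 the lowest (r = −0.63). These are descriptions over group means that share libraries and days. Among 10112 probes above background on at least 8 arrays, the probes most like CCL2 were TIMP3 (r = 0.96), FHL1 (0.96) and TBXA2R (0.96), and those most like CCL7 were DDR1 (0.97), PTPN21 (0.97) and CCND1 (0.96). SOCS3 (0.91), TMEM142C (0.90) and RNF31 (0.89) were most like CXCL1, and KLF5 (0.93), WFDC3 (0.93) and C76566 (0.91) most like LCN2. PLK2 (0.95), GOLGA5 (0.93) and NRADD (0.93) were most like PTX3 probe 870309, and a RIKEN transcript (0.92), GOLGA5 (0.89) and CGGBP1 (0.88) most like probe 3520102. For CXCL12 the brighter probes had a correlation of 0.69 with each other and different neighbours: SERTAD4 (0.92), 2900016G23RIK (0.91) and SMOX (0.89) for probe 4150750, and YIPF3 (0.96), H2-DMA (0.89) and BC039632 (0.88) for probe 4570068.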

How the data were processed

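Total RNA of 48 3T3-L1 samples was hybridised to Illumina MouseRef-8 arrays. The authors deposited, per probe and array, the mean bead intensity from BeadStudio without normalization, a detection fraction equal to 1 minus the detection p, the SD between beads, which was not used, and the count of beads. Their rank-invariant normalization and batch adjustment are not in these values. Samples were grouped by their titles.

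In limma 3.58.1 (R 4.3.3), the normexp method with detection p and an offset of 16 corrected the background. A rank-invariant scaling, rewritten here rather than taken from BeadStudio, set the arrays on the same scale. The limma model of the log2 values held all 48 arrays, the 16 group means and, after the batch term of the study's ANOVA, a replicate block. The block holds 1 shift per replicate number, so the days of a replicate count as independent for the effect of the siRNA. The SEs, intervals and p-values of contrasts averaged over days may therefore be too small. P-values were Bonferroni adjusted over 24613 probes. Samples were paired by number. Deviations of same-numbered arrays correlated at 0.544 to 0.914 in 24 of 24 pairs, and 15 of 24 correlated best with their own number. Replicate 3 did so on each day. Replicates 1 and 2 often correlated better with each other's number, as replicate 2 did on day −2 (0.854 against 0.750). Replicate 3 moved against the other replicates, so the correlations show the pairing for replicate 3 only. For replicates 1 and 2 it rests on the labels. Where a group had no array with the probe detected, a fold is a bound, taken against each array's dimmest detected probe or the probe's own signal if brighter. Such a bound holds for the main background correction and scaling only.

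The members and gene lists were chosen with earlier results of these data known. Named were all member probes, the 3 called probes of each list with the widest difference, the 3 probes most like each member, and PPARG. SAA1, SAA2, SAA3, SERPINA3G, SERPINA3N, ORM2 and C3 were named after their values were seen. Leukocyte markers named as absent were chosen after their values were seen. The fit was tested on simulated data, and alternatives varied scaling, background, offset, filter, adjustment, block, samples in the fit and replicates. Figures were drawn with matplotlib 3.10.9.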

Additional observations from a re-analysis of the deposited data

Results flagged for a closer look

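The 6 member probes differed between the early and the late effect of PPARγ siRNA by a test of that difference itself (limma, Bonferroni adjusted over all probes), and each is given as days 4 to 6 minus days 0 to 2 on the log2 scale. LCN2 had −1.20 (SE 0.12, adjusted p = 4.571e-08) and CCL7 had −1.19 (SE 0.08, adjusted p = 1.015e-12), each negative in 3 of 3 replicates. CXCL1 had −1.16 (SE 0.10, adjusted p = 5.187e-10) and CCL2 had −1.02 (SE 0.16, adjusted p = 0.00789), each also negative in 3 of 3. PTX3 probe 870309 had −0.57 (SE 0.09, adjusted p = 0.00253), while its second probe was not called at −0.39. CXCL12 probe 4570068 had 0.41 (SE 0.07, adjusted p = 0.0316), positive in 3 of 3 replicates, and the brighter second CXCL12 probe had −0.04 and was not called.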

How the results depend on the processing

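Over days −2 to 6 the 7 member probes called became 4 without scaling between arrays, 3 with no replicate block and 5 to 6 when a replicate was left out. The 18 calls on single days became 37 with Benjamini-Hochberg adjustment, 11 with no replicate block, 9 in separate fits of each day and 10 to 17 without a replicate. The share of all probes called with Benjamini-Hochberg adjustment was not counted, so the 37 cannot be set against the whole array. The 6 calls of the late minus early difference became 3 without scaling, 3 with no replicate block and 3 to 6 without a replicate. The 15 calls over the steps of the PPARγ KD became 8 without scaling, 8 with no replicate block and 10 to 15 without a replicate. The count of 21 calls over the control steps stayed within 1.5 times in each alternative and was 16 to 19 without a replicate. Calls of control steps were also lost without scaling and with no replicate block. Some of their values moved further. Without background correction CCL2 changed by −2.09 in place of −3.34 from day −2 to day 0. From day 2 to day 6 it changed by 1.48 in place of 2.38. The replicate block takes out the shift between replicate numbers, and leaving it out puts the shift of replicate 3 into the error.

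Of 1750 values of 160 single results under alternatives, 1574 kept direction and side of the threshold, 124 lost a call and 52 gained one. No called value changed sign. The sign changed in 44 values that were not called and whose 95% interval spanned 0, and these are counted among the 1574. Of 67 called results 33 were called in every alternative. Where a call was lost, the cause was not tested. A fit with the BeadChip as a block was not run. Signal near background limits IL6, CCL2 on days 0 to 2, LCN2 on day −2 and CXCL12 probe 580546.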
